A study of Mus musculus with 6 samples.

Results

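The receptors described here are 10 mouse receptor tyrosine kinases for epidermal growth factor (EGF), fibroblast growth factors (FGF), insulin-like growth factors (IGF), insulin and hepatocyte growth factor: Egfr, Erbb2, Erbb3, Erbb4, Fgfr1, Fgfr2, Fgfr3, Igf1r, Insr and Met. The set is defined by gene name, with no threshold on a measured value, and all 10 were found among the 29267 genes of the deposited tables. RNA was sequenced from neural stem cells cultured from OG2 mice, at passage 8, either undifferentiated (NSC) or differentiated and labelled D2. OG2 mice carry a green fluorescent protein reporter driven by the Oct4 promoter, and all 6 libraries share this background and passage. Each state had 1 control library, 1 with naloxone, which blocks opioid receptors, and 1 with DAMGO, a peptide that activates the mu receptor, so no group had a replicate. The labels give no dose, no exposure time and no medium, and leave unsaid whether separate cultures were used, so p-values reflect the spread among 6 libraries, which may be technical.

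These receptors sit in the cell membrane and signal in pairs. In most of them a ligand triggers phosphorylation within the pair, which recruits adaptor proteins and starts the RAS to ERK and PI3K to AKT cascades. EGF and FGF2 are the usual mitogens that keep neural stem cells dividing in culture, and insulin and IGF1 support their growth and survival. The receptors are also used after neural stem cells leave the cycle: EGFR, FGFR3 and FGFR2 are known in astrocytes and oligodendrocyte progenitors, and ERBB2, ERBB3 and ERBB4 carry neuregulin signals.

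Libraries held 8417074 to 13561237 expected counts, which are the deposited estimates of reads per gene. Levels of different receptors were compared on deposited TPM (transcript abundance, which divides by transcript length and sums to 1 fixed total per library), and 1 receptor across libraries on CPM (counts scaled to the normalised library size). An SD is over the 3 ligand conditions of a state. The markers of the labelled cell type were present. The summed level of 10 neural stem and progenitor markers was 6923 to 7033 CPM in NSC and 5674 to 6066 CPM in D2. Of these 10, 3 fell, among them Nes, the progenitor filament, from 1834 ± 16.5 to 404 ± 8.68 CPM. But 7 rose, among them Hes5, from 16.2 ± 0.504 to 264 ± 15.7 CPM, and the median log2 fold change of the 10 was 0.59. Summed markers rose from 982-1038 to 8410-8682 CPM for astrocytes and from 3258-3381 to 6220-6986 CPM for the oligodendrocyte lineage. Summed neuronal markers stood at 1233-1289 and 1318-1467 CPM, mostly Map2 (1099 ± 26.9 and 1114 ± 76.7 CPM), but of 9 tested 4 rose, among them Tubb3, from 11.9 ± 1.43 to 104 ± 4.33 CPM, and Dcx, from 9.39 ± 1.12 to 69.3 ± 7.05 CPM. Another 3 fell, Elavl4 and, named after their values were seen, Snap25 and Syt1, and 1 fell without the NSC or the D2 library with DAMGO. Microglial markers summed to at most 5.61 CPM in any library with C1qa, C1qb and Cx3cr1 at 0, endothelial ones at most 6.13 CPM with Cldn5 at 0, and fibroblast and pericyte ones at 257-287 and 115-131 CPM. The last sum was mostly Fbln2 (137 ± 3.30 and 11.1 ± 1.36 CPM) and Cspg4 (131 ± 7.39 and 89.8 ± 1.47 CPM), which is also in the oligodendrocyte list. Of 7 tested in that list 2 fell and 2 rose, Pdgfrb and Acta2. Without the NSC or the D2 library with naloxone 5 rose, and without the NSC or the D2 control 4 fell. These counts stand beside 40.0% of all genes tested that rose and 39.8% that fell. The neuronal counts are near these shares and say little about that list. Glial and some neuronal markers moved with state, as the receptors below did. In bulk RNA, fewer cells of a type and less RNA per cell cannot be told apart, and the part of cell makeup in the receptor values was not tested.

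In the differentiated cells the FGF receptors Fgfr2 and Fgfr3 and the ERBB receptors Erbb2 and Erbb4 were higher by at least 2-fold. Igf1r and Insr were lower, and Egfr and Fgfr1, which led the levels in NSC, moved little. Of the 10 receptors, 8 had the mean of 10 counts needed for the test. In edgeR's quasi-likelihood test with adjustment over 13216 genes, 6 of them rose, 4 of these by at least 2-fold, and 2 fell. Among all genes tested 79.8% passed for D2 against NSC, 40.0% higher and 39.8% lower, so a full set of calls is not by itself particular to the receptors. Rises of at least 2-fold were made by 15.9% of all genes, and the median log2 fold change was 0.80 over the 8 receptors and 0.00145 over all genes. The CPM ranges of the states did not overlap for 8 of the 8 receptors, against 82.2% of all genes.

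**Figure D1:**
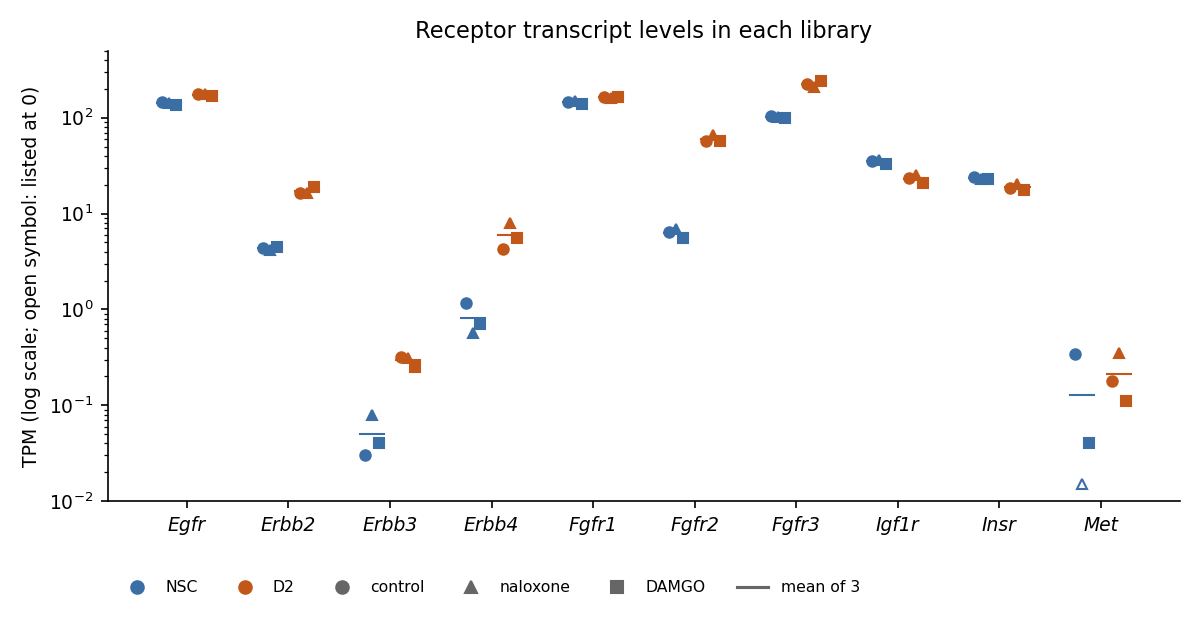
TPM (log scale) of the 10 receptors in each of the 6 libraries, with the colour for state, the symbol for ligand condition and a line at the mean of the 3 libraries of a state. Fgfr2, Erbb2 and Erbb4 stand clearly higher in D2, while Egfr and Fgfr1 are between 135 and 179 TPM in all 6 libraries and Erbb3 and Met are below 0.4 TPM throughout.

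The sequence just upstream of the start site is shown for the receptors with the largest changes between states: Erbb2, Erbb4, Fgfr2 and Fgfr3, which rose by at least 2-fold, and Igf1r, which fell most. Sequences and start sites are those of RefSeq on GRCm38.p6 (mm10), where 7 of the 10 receptors matched. Each is given 5′ to 3′ on the gene's strand, up to 250 bases, stopping before annotated exons of the gene, with capitals marking the GC box GGGCGG or its reverse complement.
Erbb2 (chr11:98412234-98412469, plus strand): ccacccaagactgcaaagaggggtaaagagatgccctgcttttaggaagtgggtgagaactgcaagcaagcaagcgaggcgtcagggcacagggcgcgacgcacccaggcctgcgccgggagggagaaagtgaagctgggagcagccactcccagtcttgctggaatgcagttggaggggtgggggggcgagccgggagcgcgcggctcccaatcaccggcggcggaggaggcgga
Erbb4 (chr1:69108060-69108309, minus strand): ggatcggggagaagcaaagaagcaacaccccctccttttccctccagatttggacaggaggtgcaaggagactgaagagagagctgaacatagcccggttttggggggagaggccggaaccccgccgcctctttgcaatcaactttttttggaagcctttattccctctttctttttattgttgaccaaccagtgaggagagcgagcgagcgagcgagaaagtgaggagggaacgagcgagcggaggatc
Fgfr2 (chr7:130266809-130267058, minus strand): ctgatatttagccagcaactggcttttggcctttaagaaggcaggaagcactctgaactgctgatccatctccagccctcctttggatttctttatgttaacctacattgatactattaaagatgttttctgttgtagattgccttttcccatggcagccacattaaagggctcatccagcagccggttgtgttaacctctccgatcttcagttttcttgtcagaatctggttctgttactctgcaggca
Fgfr3 (chr5:33721474-33721673, plus strand, the first of its start sites in the table): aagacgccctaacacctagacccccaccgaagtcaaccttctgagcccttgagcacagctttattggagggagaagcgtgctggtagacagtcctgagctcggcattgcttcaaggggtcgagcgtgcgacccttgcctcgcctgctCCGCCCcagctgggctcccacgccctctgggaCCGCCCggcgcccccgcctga
Igf1r (chr7:67952007-67952256, plus strand): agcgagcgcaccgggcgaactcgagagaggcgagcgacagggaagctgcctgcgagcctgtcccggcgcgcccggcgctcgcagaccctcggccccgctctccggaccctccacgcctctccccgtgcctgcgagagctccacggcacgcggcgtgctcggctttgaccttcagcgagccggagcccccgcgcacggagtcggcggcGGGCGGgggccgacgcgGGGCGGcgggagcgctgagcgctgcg
The 250-base window of Fgfr2 held 44.0% G or C and 2 CG pairs, below the medians of 52.4% and 6 over 32851 promoters of the same length. The other windows were richer, with 66.0% and 16 CG pairs for Erbb2, 54.0% and 12 for Erbb4, 66.8% and 19 for Fgfr3 and 77.6% and 42 for Igf1r. Erbb2, Erbb4 and Fgfr2 had no GC box on either strand, whereas Fgfr3 had 3 and Igf1r 2 in the full window, and 32.7% of all promoters had at least 1. The TATA box TATAAA (12.4% of promoters), the FOXO site GTAAACA (3.17%) and the SOX site ACAAAG (16.5%) were not found in these 5 windows. The E-box CANNTG (66.2% of promoters) was found in those of Erbb2, Fgfr2 and Fgfr3. The receptors that rose by at least 2-fold thus did not share 1 base composition or any of these motifs in these windows. The start site of the Fgfr2 window lies inside the gene annotated in GENCODE M21, 2856542 bases from the start of that gene. Whether this site is used in these cells was not tested. For Igf1r the distance was 570 bases.

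Among the ERBB receptors, Egfr carried nearly all of the transcripts in both states. Egfr (mm10 chr11:16752203-16918158), the receptor for EGF and TGF-alpha, stood at 147, 143 and 135 TPM in the NSC libraries (control, naloxone and DAMGO, in this order throughout) and at 179, 178 and 167 TPM in the D2 libraries. In CPM the libraries were at 551, 557 and 527 in NSC and at 577, 603 and 579 in D2. Every D2 library lay above every NSC library on both scales, by a small margin in CPM. The log2 fold change in edgeR was 0.10 (SE 0.04, 95% interval 0.01 to 0.20, adjusted p = 0.0416). This call was lost with DESeq2 (adjusted p = 0.0785), without a filter on low counts (edgeR, adjusted p = 0.142) and without any 1 of the 6 libraries (edgeR, adjusted p = 0.0570 to 0.201), always with the same direction. In TPM the rise was larger, 0.30 on the log2 scale of the mean levels. The deposited transcript length of Egfr, by which TPM divides, was 8181, 8513 and 8555 bases in NSC and 7075, 7556 and 7542 bases in D2.

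Erbb2 and Erbb4, the low members of the ERBB family in NSC, rose several-fold. Erbb2 (chr11:98412470-98437716), which has no known ligand of its own and acts as the preferred partner of the other ERBB receptors, was at 4.42, 4.13 and 4.44 TPM in NSC and at 16.3, 16.2 and 18.9 TPM in D2. In CPM it went from 9.74 ± 0.635 to 37.1 ± 1.40 (SD, n = 3 ligand conditions), a log2 fold change in edgeR of 1.93 (SE 0.09, adjusted p = 1.91e-09). The 3 D2 libraries were close to each other and all well above NSC. Erbb4 (chr1:68032186-69108059), a neuregulin receptor with an active kinase, had 37, 43 and 35 counts in NSC and 214, 244 and 239 in D2. That is 3.49, 3.18 and 3.85 CPM against 21.0, 28.8 and 27.0 CPM, and a log2 fold change in edgeR of 2.87 (SE 0.14, adjusted p = 2.33e-09). The groups were far apart, with the D2 control the lowest of the D2 libraries. Its TPM (1.18, 0.57 and 0.71 in NSC, 4.30, 7.93 and 5.60 in D2) spread more than its counts. TPM divides by the deposited length, which for Erbb4 ranged from 6490 to 12037 bases between libraries.

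Erbb3 (chr10:128567523-128589652), the neuregulin receptor with a nearly inactive kinase, was close to the limit of detection. It had 1, 3 and 1 counts in NSC and 9, 7 and 6 in D2, and did not reach the filter. Over the pooled libraries its level was 5.31 times as high in D2 (exact binomial 95% interval 1.96 to 17.9, counting error only). Without the filter edgeR gave a log2 fold change of 2.35 (adjusted p = 0.0167). Adjusted p-values of that edgeR fit are not comparable with those of the main one. For Erbb2 it was 3.21e-67 against 1.91e-09, and for Egfr 0.142 against 0.0416. The D2 counts were all above the NSC counts, at levels of 0.25 to 0.32 TPM.

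The makeup of the ERBB family shifted toward the partners of Egfr. Summed over the 4 receptors, the level was 147 ± 6.52 TPM in NSC and 198 ± 5.70 TPM in D2. The share of Egfr went from 96.5 ± 0.270% to 88.2 ± 1.24%, and that of Erbb2 from 2.96 ± 0.198% to 8.68 ± 1.02%. The share of Erbb4 lay between 0.386% and 0.773% in NSC and between 2.16% and 3.91% in D2. Egfr thus remained at over 87% of ERBB transcripts in each of the 6 libraries, and the shares of Egfr, Erbb2 and Erbb4 did not overlap between the states.

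**Figure D2:**
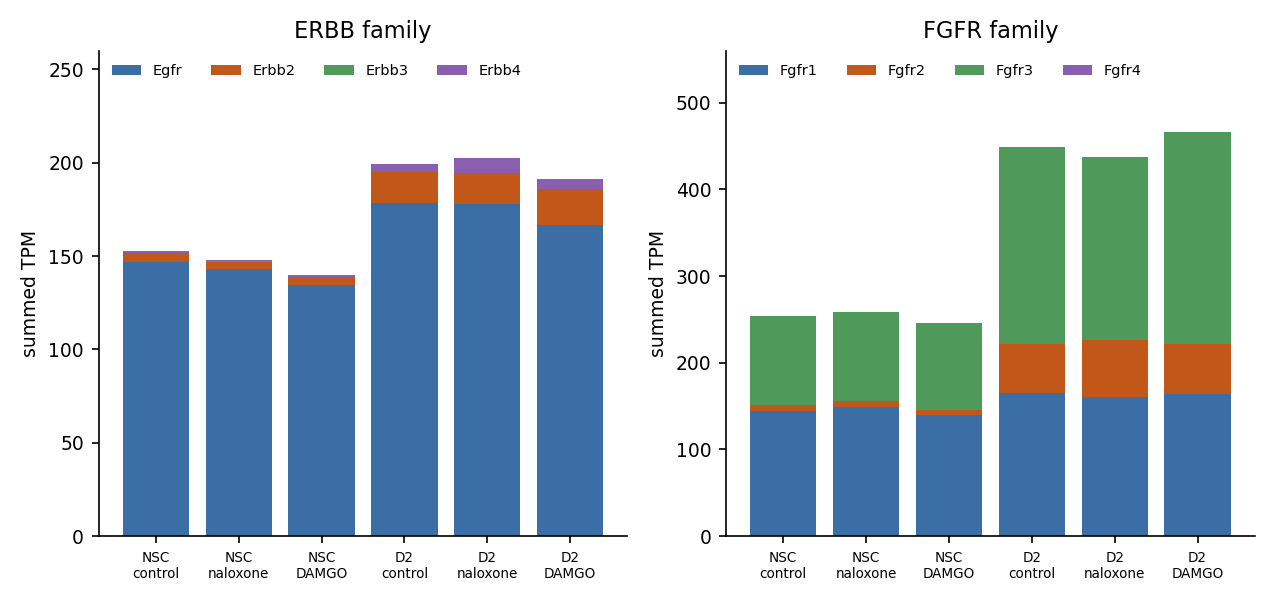
Summed TPM of the ERBB receptors (left) and the FGF receptors (right) in each library, stacked by gene; Erbb3 and Fgfr4 are too low to see. Egfr fills most of every ERBB bar, while the FGFR bars grow from 246-258 to 437-466 TPM, mostly through Fgfr3 and Fgfr2.

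The FGF receptors, which bind FGFs together with heparan sulphate, included the largest rise of the 8 tested receptors. Fgfr2 (chr7:130162451-133123350), known in glia for responses to FGFs of several subfamilies, had 58, 110 and 62 counts in NSC and 723, 600 and 539 in D2. In CPM this is 5.47, 8.12 and 6.83 against 70.8, 70.8 and 60.9, with D2 to NSC ratios of 12.9, 8.71 and 8.92 in the control, naloxone and DAMGO pairs. The log2 fold change in edgeR was 3.30 (SE 0.11, adjusted p = 6.28e-11). The groups were far apart, and in CPM the control pair, with the lowest NSC value, had the highest ratio. In TPM Fgfr2 went from 6.31 ± 0.650 to 59.99 ± 4.64. There the ratios were 8.90, 9.45 and 10.3, lowest in the control pair. In GENCODE M21 the Fgfr2 gene starts far upstream and shares 314 exonic bases with Ctbp2 on the same strand. Whether the deposited gene model does so was not checked. The deposited counts of Fgfr2 were fractional in all 6 libraries, but so were those of Fgfr1. Some reads may be divided between Fgfr2 and Ctbp2, which was not tested.

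Fgfr3 (chr5:33721674-33737068), a receptor known from astrocytes and their precursors, became the highest of the 10 in D2. It was at 103, 102 and 101 TPM in NSC and at 227, 211 and 244 TPM in D2. In CPM it went from 138, 154 and 136 to 376, 355 and 380, a log2 fold change in edgeR of 1.38 (SE 0.06, adjusted p = 7.50e-10). All D2 libraries were more than 2-fold above all NSC libraries. The log2 ratio of mean TPM was smaller, 1.15, and the deposited length was 2955, 3318 and 3005 bases in NSC and 3672, 3792 and 3430 in D2. The kit does not mark strand, and 998 exonic bases of Fgfr3 overlap G630022F23Rik on the opposite strand. That gene is not among those of the deposited tables, so its level is unknown and reads of the pair cannot be told apart.

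Fgfr1 (chr8:25513654-25575718), the main receptor for FGF2 in neural progenitors, was high in both states. It stood at 145, 149 and 139 TPM in NSC and at 165, 161 and 164 TPM in D2. The CPM values were 235, 239 and 231 in NSC against 280, 259 and 282 in D2, and the log2 fold change in edgeR was 0.22 (SE 0.05, adjusted p = 0.00202). The rise was small, and the D2 library with naloxone lay nearest to the NSC values.

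The FGF receptor pool therefore changed both in size and in makeup. The sum of Fgfr1, Fgfr2, Fgfr3 and Fgfr4 was 253 ± 6.41 TPM in NSC and 451 ± 14.4 TPM in D2. The share of Fgfr1 went from 57.1 ± 0.448% to 36.3 ± 0.851%, that of Fgfr3 from 40.4 ± 0.644% to 50.4 ± 2.01% and that of Fgfr2 from 2.49 ± 0.195% to 13.3 ± 1.40%. Fgfr1 was the leading FGF receptor in each NSC library and Fgfr3 in each D2 library. Fgfr4, which was not among the 10, had 11 counts over all 6 libraries. Fgfrl1, an FGF-binding receptor without a kinase domain, rose from 45.1 ± 3.73 to 116 ± 0.881 CPM (log2 fold change 1.36 in edgeR, SE 0.06, adjusted p = 1.29e-09).

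The insulin and IGF1 receptors were the 2 that fell. Igf1r (chr7:67952827-68233668), the receptor for IGF1 and IGF2, was at 72.3, 74.8 and 67.5 CPM in NSC and at 47.4, 50.6 and 42.7 CPM in D2. Its log2 fold change in edgeR was -0.61 (SE 0.06, adjusted p = 2.02e-06), and all D2 libraries lay below all NSC libraries. Insr (chr8:3122061-3279617), the insulin receptor, was at 104, 98.7 and 99.0 CPM in NSC and at 78.8, 85.2 and 75.8 CPM in D2, with a log2 fold change in edgeR of -0.33 (SE 0.06, adjusted p = 0.000237). Its ranges were also apart, with the D2 library with naloxone closest to NSC. Together they summed to 58.5 ± 1.99 TPM in NSC and 41.9 ± 3.62 TPM in D2, of which Igf1r held 59.9 ± 1.34% and 55.2 ± 0.854%. The deposited length of Igf1r was 4489 bases in every library, while its transcript in GENCODE M21 has 11409, so the level of Igf1r relative to other receptors depends on the gene model used. Igf2r, the non-kinase receptor that clears IGF2 and sorts lysosomal enzymes, fell from 113 ± 5.39 to 51.7 ± 5.62 CPM (log2 fold change -1.13 in edgeR, SE 0.08, adjusted p = 3.43e-08). Insrr, the insulin receptor-related kinase, had 1 count over the 6 libraries.

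Met (chr6:17463800-17573980), the receptor for hepatocyte growth factor, was barely detected. It had 2, 0 and 1 counts in NSC and 3, 9 and 3 in D2. Its pooled level was 6.03 times as high in D2 (exact binomial 95% interval 1.71 to 32.5, counting error only), and without the filter its log2 fold change in edgeR of 2.40 did not pass (adjusted p = 0.0634). A count of 0 in the NSC library with naloxone allows up to 3 counts, or 0.221 CPM. In TPM the ranges of Met overlapped (0 to 0.34 in NSC, 0.11 to 0.35 in D2). The related receptor Mst1r had 14 counts over the 6 libraries.

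**Figure D3:**
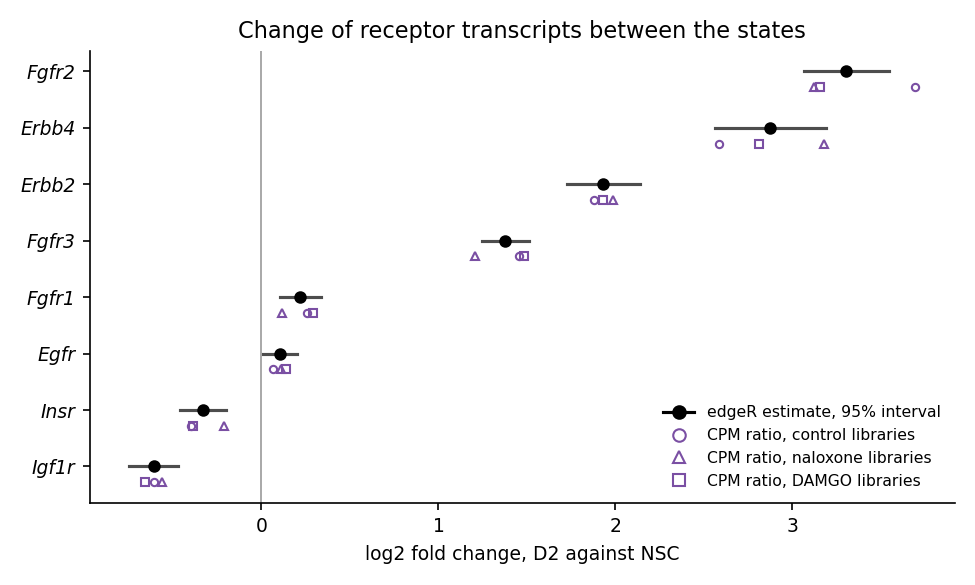
Log2 fold change of D2 against NSC for the 8 tested receptors: black points with 95% intervals are the edgeR estimates, and open symbols are the CPM ratios of the control, naloxone and DAMGO pairs. Fgfr2, Erbb4, Erbb2 and Fgfr3 lie to the right of 1, Fgfr1 and Egfr just right of 0, and Insr and Igf1r left of 0 in all 3 pairs.

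Ordered by TPM, Fgfr1 (144 ± 4.65) and Egfr (141 ± 6.36) led in NSC and their ranges overlapped. They were followed by Fgfr3 (102 ± 1.37), Igf1r (35.1 ± 1.80), Insr (23.5 ± 0.677), Fgfr2 (6.31 ± 0.650), Erbb2 (4.33 ± 0.173) and Erbb4 (0.82 ± 0.320), with ranges apart at each step, and by Met and Erbb3, whose ranges overlapped. In D2 the order was Fgfr3 (227 ± 16.3), Egfr (175 ± 6.66), Fgfr1 (163 ± 2.41), Fgfr2 (59.99 ± 4.64) and Igf1r (23.1 ± 2.26), again with ranges apart. Insr (18.8 ± 1.39) and Erbb2 (17.1 ± 1.51) overlapped there, Erbb4 (5.94 ± 1.84) was lower, and Erbb3 and Met overlapped at the bottom. Fgfr2 thus stood below Igf1r and Insr in NSC and above both in D2, and Erbb2 came into the range of Insr. The places of Igf1r in both orders rest on its deposited length of 4489 bases, against 11409 in GENCODE M21.

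Deposited length, the abundance-weighted mean over a gene's transcripts, is a readout that the gene total does not use. It varied between libraries for 6 of the tested receptors, and 2 of these, Egfr and Fgfr3, had ranges that did not overlap between the states, against 23.7% of the 8987 genes with varying length. For Egfr the mean was 8416 ± 205 bases in NSC and 7391 ± 274 in D2, and for Fgfr3 3093 ± 197 and 3631 ± 184. GENCODE M21 lists 5 transcripts of Egfr of 446 to 10208 bases and 12 of Fgfr3 of 601 to 4245 bases. The estimates shift with how the tool divides reads between transcripts, and no transcript-level values were used here.

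No receptor passed the test for a ligand. For naloxone against control 0 of 8 receptors passed edgeR's test, where 2 genes in all, 0.0151%, did. DAMGO against control also gave 0 of 8 receptors with 2 genes (0.0151%), and naloxone against DAMGO 0 of 8 with 4 genes (0.0303%). At an unadjusted p under 0.05 the counts were 0, 0 and 1 of 8 receptors, beside 293, 317 and 279 genes, and DESeq2 called 0 of 8 receptors and 1, 0 and 0 genes. The log2 fold changes lay between -0.09 and 0.31 for naloxone and between -0.12 and 0.31 for DAMGO, and the half-widths of their 95% intervals between 0.12 and 0.37. For Egfr the interval of the naloxone difference was -0.08 to 0.16 and that of DAMGO -0.15 to 0.09. Over all settings tried the lowest adjusted p of any receptor was 0.391, 0.671 and 0.543 for the 3 contrasts. The naloxone and DAMGO contrasts share their control libraries. They say nothing of effects smaller than these intervals, and a ligand effect of different size in NSC and D2 would count as residual spread.

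The largest ligand estimates were those of Erbb4. Its additive log2 fold change was 0.31 with naloxone (SE 0.16, edgeR unadjusted p = 0.0852, adjusted p = 1) and 0.31 with DAMGO (SE 0.17, unadjusted p = 0.0878, adjusted p = 0.9998). Without the D2 control the estimates were -0.0036 and -0.0148, and without the D2 library with naloxone that of naloxone was -0.0476. In D2 both ligand libraries were above the control, at 1.37 times (exact binomial 95% interval 1.14 to 1.66) and 1.29 times (1.07 to 1.56). In NSC the ratios were 0.910 (0.573 to 1.45) and 1.10 (0.675 to 1.80), so counting error there spans the D2 values. Igf1r was the receptor that differed between naloxone and DAMGO at an unadjusted p of 0.0304 (log2 fold change 0.19, interval 0.02 to 0.36, edgeR adjusted p = 0.9998), and it was higher with naloxone than with DAMGO in both states.

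Within a state each ligand comparison is a pair of libraries with no test, and its interval covers counting error only. With naloxone the interval left out a ratio of 1 for 2 of 8 receptors in NSC and 4 of 8 in D2, against 8.92% and 21.1% of all genes. Fgfr2 (1.49, 1.07 to 2.08) and Fgfr3 (1.12, 1.04 to 1.19) were higher in NSC. In D2 Erbb4 and Egfr (1.04, 1.01 to 1.08) were higher, and Fgfr1 (0.923, 0.872 to 0.976) and Fgfr3 (0.943, 0.898 to 0.989) lower. The normalised counts of Fgfr3 thus moved in opposite directions in the states, a difference that was not tested. In TPM Fgfr3 was lower with naloxone in both states, at 102.46 against 103.23 in NSC and 211.06 against 226.72 in D2. With DAMGO the numbers were 1 of 8 in NSC and 2 of 8 in D2, against 7.79% and 16.7% of genes. Egfr was lower in NSC (0.955, 0.919 to 0.993), and in D2 Fgfr2 was lower (0.860, 0.768 to 0.963) and Erbb4 higher. The shares of all genes past this limit show that libraries of a state differed by more than counting error, more so in D2.

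**Figure D4:**
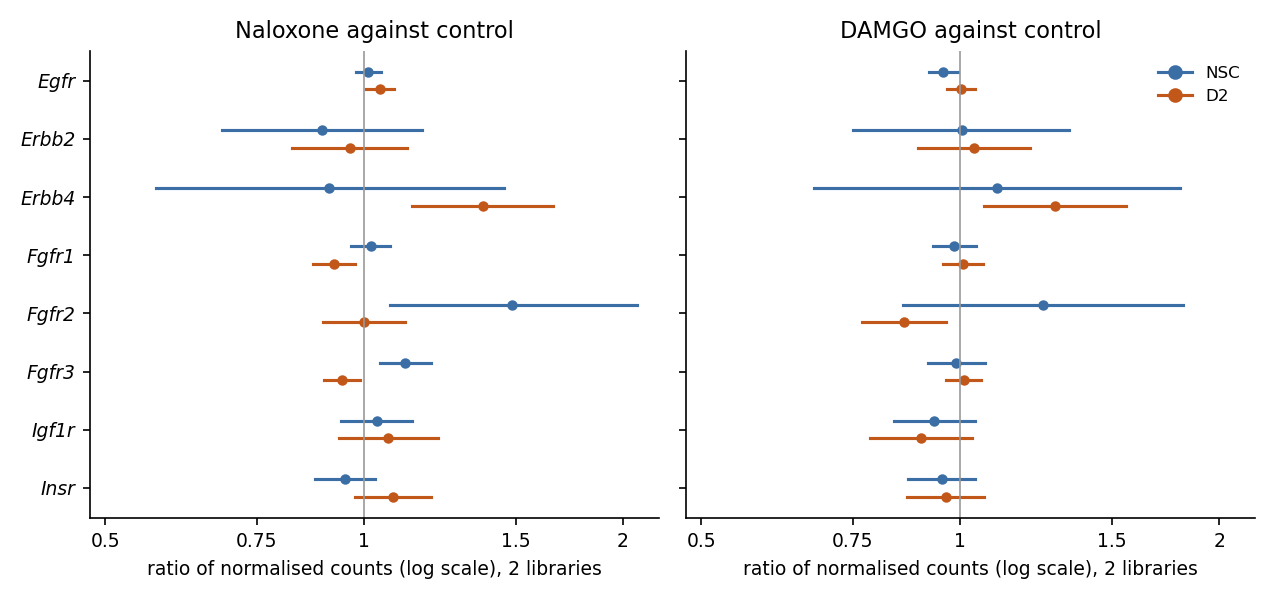
Ratio of normalised counts (log scale) of the naloxone (left) or DAMGO (right) library to the control library of the same state, for the 8 tested receptors, with exact binomial 95% intervals that cover counting error only. Most intervals include 1, and the widest are those of Erbb4 and Fgfr2 in NSC, which had the fewest counts.

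The ligands of these receptors were mostly low in the cells themselves. Counts of genes that rose and fell in each list stand beside 40.0% and 39.8% of all genes tested. Of 11 EGF and neuregulin ligands 7 were tested, of which 1 rose and 4 fell (median log2 fold change -0.48). Tgfa, an EGFR ligand, rose from 16.3 ± 2.34 to 62.5 ± 3.11 CPM (log2 fold change 1.95 in edgeR, SE 0.09). Hbegf fell from 28.3 ± 2.60 to 20.2 ± 3.84 CPM (-0.48, SE 0.11), and the others that fell, named after their values were seen, were Areg, Nrg1 and Nrg4, each below 4 CPM. Only 2 fell without the NSC or the D2 library with DAMGO. Nrg3 had 0 counts.

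Of 18 FGF ligands only Fgf1 could be tested. It was at 73.0 ± 6.02 CPM in NSC and 66.5 ± 0.879 CPM in D2 and did not pass (log2 fold change -0.13, SE 0.06, edgeR adjusted p = 0.0673), but it passed as a fall without the NSC library with DAMGO (adjusted p = 0.0391) or the D2 library with DAMGO (0.0360). Fgf8, the next in mean level over the 6 libraries, was below 1 CPM on average in both states, and Fgf2, named after its values were seen, was at 0.215 ± 0.118 and 0.280 ± 0.192 CPM. Hgf, the ligand of MET, had 0 counts in all 6 libraries. In its list of 8 ligands and activators only Hpn, a protease that activates HGF, was tested, and it fell (-2.68, SE 0.51, edgeR adjusted p = 0.000420) from 1.70 ± 0.259 to 0.245 ± 0.138 CPM.

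In the IGF system Igfbp3 and Igfbp4 fell strongly and Igfbp5 rose. Of 16 ligands and binding proteins 8 were tested, of which 5 fell and 2 rose (median -1.13). Igfbp3 fell from 827 ± 9.35 to 105 ± 4.29 CPM (log2 fold change -2.97 in edgeR, SE 0.05) and Igfbp4 from 96.9 ± 1.36 to 12.1 ± 1.97 CPM (-2.99, SE 0.09). Stc1, a stanniocalcin that inhibits the protease PAPP-A, fell by 3.20 on the log2 scale from 10.9 ± 1.75 CPM, while Igfbp5 rose from 33.8 ± 5.70 to 141 ± 12.6 CPM (2.07, SE 0.08). The remaining calls, named after their values were seen, were the falls of Igfbp2 (-0.55, SE 0.05) and Stc2 (-1.71, SE 0.14) and the rise of Igf2 (1.92, SE 0.69). Igf2 had 3, 11 and 6 counts in NSC and 71, 8 and 5 in D2, so its rise lay in the control pair. Without the NSC or the D2 control this call was lost (edgeR log2 fold change 0.04 in each case, adjusted p = 0.948 and 0.957). Ins1, Ins2 and Igfbp1 had 0 counts.

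Other receptor tyrosine kinases also rose more often than they fell: 20 rose and 5 fell of 29 tested (median 0.66). Pdgfrb rose from 0.0807 ± 0.0748 to 8.09 ± 0.489 CPM (log2 fold change 6.32 in edgeR, SE 0.41) and the progenitor receptor Pdgfra from 13.1 ± 1.18 to 377 ± 32.6 CPM (4.83, SE 0.08). Axl rose by 4.55 (SE 0.09) to 105 ± 2.18 CPM and Kit, the stem cell factor receptor, by 3.22 (SE 0.06) to 147 ± 3.65 CPM. The rises of Fgfr2 and Erbb4 thus lay below those of Pdgfrb, Pdgfra and Axl and near that of Kit.

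Adaptors and docking proteins, which link the receptors to their cascades, rose in 14 and fell in 9 of 29 cases (median -0.04), so their counts are near the 40.0% and 39.8% of all genes and say little about the list. Dok5 rose (2.19, SE 0.16), as did Shc2 (1.07, SE 0.11), while Grb14, an inhibitor of the insulin receptor, fell from 17.7 ± 0.928 to 3.99 ± 0.0336 CPM (-2.14, SE 0.14). Irs1, the docking protein of the insulin and IGF1 receptors, fell from 61.2 ± 1.81 to 29.0 ± 3.80 CPM (-1.08, SE 0.09), in the same direction as Igf1r and Insr. Of 24 genes of PI3K, AKT and FOXO signalling 11 rose and 6 fell (median 0.14), or 3 fell with limma on TPM. Foxo4 (1.36, SE 0.07) and the lipid phosphatase Inppl1 (1.11, SE 0.05) rose. Pdk1, in mouse the symbol of a pyruvate dehydrogenase kinase outside this cascade, rose (1.55, SE 0.11).

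RAS, RAF, MEK and ERK genes fell in 6 and rose in 2 of 13 cases (median -0.05). Rasa1, a RAS inhibitor, fell from 126 ± 3.44 to 26.7 ± 2.99 CPM (-2.25, SE 0.07) and Braf from 79.1 ± 3.80 to 25.8 ± 4.28 CPM (-1.63, SE 0.09), and Hras fell by 0.54 on the log2 scale. Mapk3, which encodes the kinase ERK1 and was named after its values were seen, rose (0.24, SE 0.06). ERK feedback regulators and ETV factors, whose transcripts are used as readouts of ERK activity, fell in 9 and rose in 2 of 13 cases (median -0.85). Spry4 went from 243 ± 13.2 to 40.1 ± 0.732 CPM (-2.60, SE 0.06), Dusp4 from 31.0 ± 1.77 to 6.08 ± 1.59 CPM and Dusp6 from 247 ± 3.29 to 52.4 ± 6.40 CPM, while the FGF receptor inhibitor Il17rd rose from 30.7 ± 0.893 to 137 ± 11.0 CPM (2.15, SE 0.06). Most of these feedback transcripts thus fell in the libraries in which Fgfr2, Fgfr3, Erbb2 and Erbb4 rose.

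Regulators that act on the receptors themselves rose in 11 and fell in 5 of 21 cases (median 0.33). Lrig1, a membrane protein that promotes ERBB receptor degradation, rose from 275 ± 9.32 to 665 ± 13.0 CPM (log2 fold change 1.27 in edgeR, SE 0.05), Lrig3 by 1.30 (SE 0.13) and Socs3 by 1.45 (SE 0.17), and Socs4 fell by 1.59. Heparan sulphate co-receptors and the enzymes that make them, listed with related genes, rose in 12 and fell in 6 of 22 cases (median 0.31). Flrt2, Flrt3 and Sulf2, which fell and were named after their values were seen, are such related genes. The glypicans Gpc4 (2.19, SE 0.09) and Gpc2 (0.89, SE 0.06) rose, and the syndecan Sdc1 (-1.88, SE 0.09) and the sulphotransferase Hs6st2 (-2.99, SE 0.14) fell. Proteases that process receptors and ligands, listed with related genes, rose in 10 and fell in 5 of 17 cases (median 0.31). Rhbdf1, Ncstn and Aph1a, which rose and were named after their values were seen, encode no protease themselves. Rhbdl3, a rhomboid-family gene, rose from 7.40 ± 0.963 to 143 ± 4.13 CPM (4.26, SE 0.08) and the presenilin Psen2 by 1.47 (SE 0.18), whereas the sheddases Adam12, from 427 ± 2.39 to 84.4 ± 4.55 CPM (-2.34, SE 0.05), and Adam19 (-2.84, SE 0.06) fell. No gene of these 13 lists passed edgeR's test for naloxone, DAMGO or their difference. The glial and some of the neuronal markers given above moved with state beside every list.

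**Figure D5:**
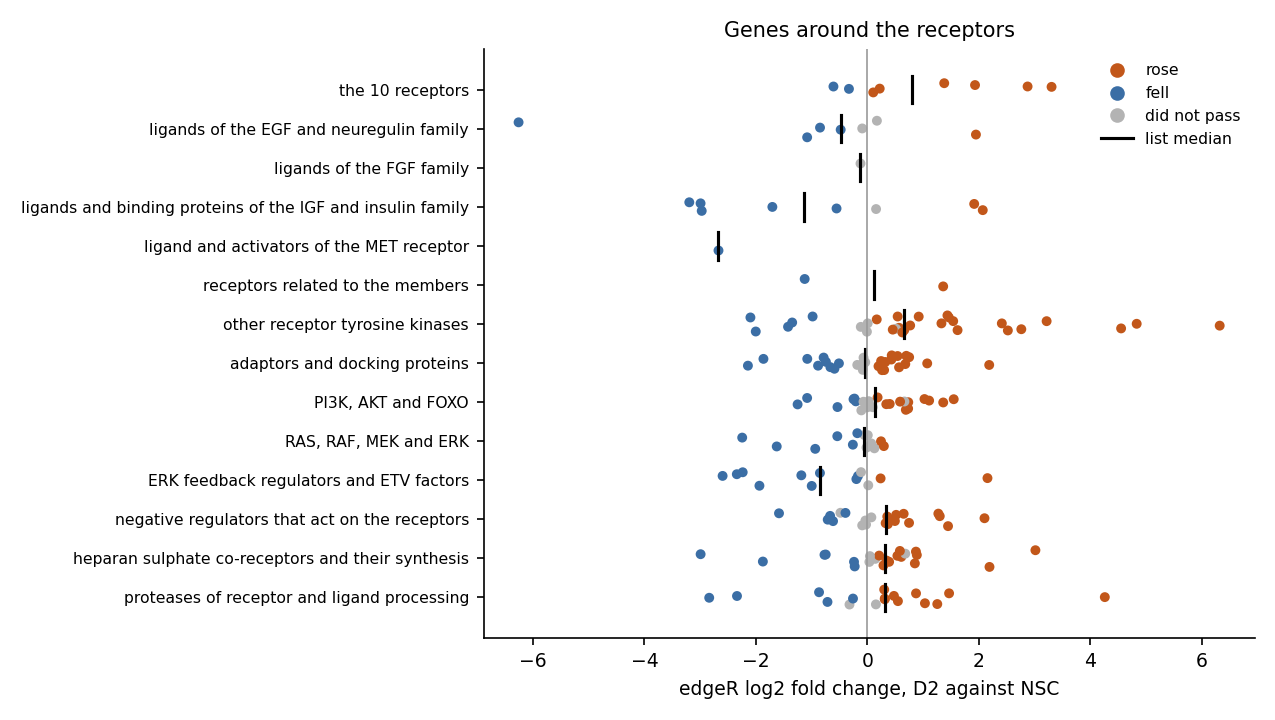
EdgeR log2 fold change of D2 against NSC for the tested receptors and each list of related genes, 1 point per gene, coloured by whether it rose, fell or did not pass, with a bar at the list median. The medians of the receptors (0.80) and the other receptor tyrosine kinases (0.66) lie right of 0, and those of the ERK feedback list (-0.85) and the IGF list (-1.13) left of it.

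The genes whose profiles were most like each receptor were found by the Euclidean distance of log2 CPM, centred per gene, over the 6 libraries among 10767 genes, as a description. For Fgfr2 they were Rnf182 (0.185), Kcnj10, an inward rectifier potassium channel (0.293), and Igsf11 (0.296), and for Erbb4 Gsta4 (0.333), Itga7 (0.335) and Ctsf (0.350). For Fgfr3 they were Ltbp3 (0.0427), Grina (0.0807) and B3gat1 (0.0922), and for Erbb2 Vhl (0.116), Scg3 (0.125) and Fam234b (0.131). Egfr was nearest to Rab7 (0.0427), Fip1l1 (0.0480) and Brd9 (0.0482), and Fgfr1 to Tmem132a (0.0200), Zfp263 (0.0362) and Tle3 (0.0365). Igf1r was nearest to Ago2 (0.0807), Nom1 (0.0847) and Snrnp25 (0.0941), and Insr to Scyl2 (0.0557), Pdia3 (0.0563) and Smad2 (0.0589). The distances were largest for Erbb4 and Fgfr2, which had the fewest NSC counts of the 8.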

How the data were processed

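Trizol RNA was made into libraries with the Illumina TruSeq RNA kit, as the labels' protocols state. For every library the authors deposited expected counts, TPM values and transcript lengths by gene. The submitters' processing notes name Bowtie, RSEM and the build mm10. Versions, annotation and read filtering: not given in the sources used here. Of 29267 identifiers 28756 matched GENCODE M21 on mm10, which gave symbols, coordinates and transcripts.

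Expected counts were rounded. The 13216 genes that averaged 10 counts or more were TMM-normalised. They were tested with edgeR 4.0.16 (R 4.3.3; glmQLFit, then glmQLFTest) on state plus ligand, which leaves 2 residual degrees of freedom. P-values were adjusted by Benjamini-Hochberg over all 13216 genes at a threshold of 0.05. The alternatives used DESeq2 1.42.0 and limma 3.58.1 on log2(TPM + 1) and log2(TPM + 0.1), other filters and factors, and each library left out. Within a state, ratios of normalised counts carry exact binomial 95% intervals. Chi-square per degree of freedom was 1.58 to 1.84 for pairs of NSC libraries and 3.74 to 3.96 for pairs of D2 libraries, so none was a copy. Scripts were tested on simulated data.

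The receptors and gene lists were chosen with earlier results of these data known. All 10 receptors, Fgfr4, Fgfrl1, Igf2r, Insrr and Mst1r were named, and from each list up to 4 genes past the state threshold with the largest change and at least 5 CPM in a state, or the 2 most abundant where none qualified. Some genes of the lists are counted but not reported by name here.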

Additional observations from a re-analysis of the deposited data

Results flagged for a closer look

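Fgfr3 was singled out because its normalised counts in the naloxone and control libraries differed in opposite directions in the states. The ratio was 1.12 in NSC (2080 against 1459 counts, exact binomial 95% interval 1.04 to 1.19) and 0.943 in D2 (3009 against 3844 counts, interval 0.898 to 0.989). In TPM the naloxone library was the lower one in both states, at 102.46 against 103.23 in NSC and 211.06 against 226.72 in D2. Each state had 1 library per ligand condition, the difference between the states was not tested, and the intervals cover counting error only. Intervals that left out 1 were found for 8.92% of all genes in NSC and 21.1% in D2.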

How the results depend on the processing

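For D2 against NSC, the direction of all 8 tested receptors and the calls of 7 held in all 13 alternatives. The exception was Egfr, whose call was lost in 8 of the 13, with log2 fold changes of 0.09 to 0.30 over all of them. Leaving out 1 library gave 7 to 7 receptors called and 9917 to 10171 genes called. The partner of a left-out library adds nothing to the state contrast, so these runs act as runs without a ligand pair. The Erbb4 log2 fold change ranged from 1.91, with limma on log2(TPM + 1), which understates low genes, to 3.01. Receptors called for a ligand were 0 in every alternative and 0 to 0 with 1 library left out, but counts of all genes called moved. For naloxone (2) they were 1 with DESeq2, 0 with RLE factors, 45 without a filter, 0 with a mean of at least 50 counts, 0 and 0 with limma on TPM, and 1 to 70 with 1 library left out. For DAMGO (2) they were 0 with DESeq2, 83 without a filter, 0 and 0 with limma, and 4 to 114 with 1 library left out. For naloxone against DAMGO (4) they were 0 with DESeq2, 1 with RLE factors, 53 without a filter, 0 and 0 with limma, and 3 to 33 with 1 library left out. The cause was not tested. Some list counts for D2 against NSC also moved by over 1.5 times. With a mean of at least 50 counts, which tests fewer genes, 1 EGF ligand, 0 MET activators and 3 other receptor tyrosine kinases fell. With DESeq2 2 EGF ligands fell and 1 IGF gene rose, and 1 IGF gene rose with limma on TPM. No called value changed sign. Of 288 uncalled ligand estimates of the receptors under the alternatives 41 did, among them Erbb4 with naloxone (0.31) at -0.0476 without the D2 library with naloxone and -0.03 with limma on log2(TPM + 0.1), Erbb4 with DAMGO (0.31) at -0.14 there, Fgfr2 with DAMGO (-0.11) at 0.34 without the D2 control and Fgfr3 with naloxone (0.03) at -0.09 without the NSC library with naloxone. No pairing by replicate was possible because the labels give no replicate numbers to pair on. The ligand term sets the states against each other within a ligand condition, and without it the same number of receptors, 8, passed for state. Depth limits Erbb3 and Met, which had 27 and 18 counts in all.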
